A study of Mus musculus with 6 samples.

Results

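The genes described here make, recycle and balance nucleotides and supply the one-carbon units this needs. They are 44 named enzymes of purine, pyrimidine and deoxynucleotide synthesis, the folate cycle and salvage. They were chosen by function, with earlier results of these data known. Of these, 43 were measured among the 19937 genes tested, and Impdh2 was not analysed here. Each gene was read from 1 probe set, the brightest of those that carry its symbol alone. In arrays of mouse blood-forming cells labelled EVI1, 22 of the 43 genes fell and 4 rose, relative to arrays labelled EGFP. Over all genes tested 9.18% fell and 9.06% rose.

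Cells build purines step by step on activated ribose phosphate (PRPP), and build the pyrimidine ring first and then attach it to PRPP. Folate carries one-carbon units that close the purine ring and turn deoxyuridine monophosphate into thymidine monophosphate, and ribonucleotide reductase converts ribonucleotides into the deoxynucleotides of DNA. Salvage enzymes return free bases and nucleosides to the same pools, and dividing blood progenitors draw on both routes because they copy their genome often.

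The study used 6 one-colour Affymetrix Mouse Gene ST arrays, 3 labelled EVI1 and 3 labelled EGFP. The first group received the lentiviral vector pRRL.PPT.Tet.Evi1.IRES.EGFP.pre, which expresses EVI1, a zinc finger transcription factor of the Mecom locus that is overexpressed in some myeloid leukemias, together with green fluorescent protein. The second received pRRL.PPT.Tet.EGFP.pre, which carries the fluorescent protein without EVI1. Both groups were lineage-negative (Lin-) hematopoietic progenitors of Rosa26rtTA mice on the C57BL6 strain, whose reverse transactivator drives tetracycline promoters in the presence of doxycycline, so the EGFP cells carried it and received the drug too. All cells grew in serum-free StemSpan medium with penicillin/streptomycin, glutamine, murine SCF (50 ng/ml), murine IL-3 (20 ng/ml), human Flt-3 ligand (50 ng/ml) and human IL-11 (50 ng/ml). Transduction followed isolation by 24 h, and induction with doxycycline (1 µg/ml) followed transduction by 24 h; the EGFP-expressing cells were sorted 20 h after doxycycline by the design text, while the treatment protocol puts RNA preparation at 24 h. The labels give neither the age of the mice, nor the vector dose, nor whether replicates are separate animals or cultures, so p-values measure the spread between these arrays, which may be technical.

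Values are log2 intensities deposited by the authors, so a difference of 1 is a 2-fold change, and the array medians lay between 7.24 and 7.31. The level of Mecom did not mirror the labels: it was 6.29, 6.18 and 6.49 in arrays labelled EVI1, against 6.39, 7.53 and 6.86 in arrays labelled EGFP (log2 fold change -0.60 ± 0.26 SE, limma adjusted p = 0.166). Both Mecom means were below the 95th percentile of the signal of 1027 olfactory receptors, 6.99 in EVI1 and 6.95 in EGFP arrays, which served as a guide to background, and it could not be settled here whether these probes detect the vector's transcript. The groups are therefore called by their labels, and every direction is that of the arrays labelled EVI1 against the arrays labelled EGFP. All 43 genes lay over the 25th percentile of probe set means and 42 over their median, and Tk2 was the 1 gene under the olfactory guide in both groups. Arrays give no read depth, so their number limits the precision. In bulk RNA, fewer cells of a type and less RNA per cell cannot be told apart.

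Promoter sequences are shown for the members whose promoters hold an E-box, and for Ppat, which starts beside Paics on the opposite strand. They place the thymidylate and purine genes beside their letters, and were picked after the matches were seen. RefSeq promoters of build GRCm38.p6, from 250 bases before to 50 bases after each start, were found for 40 of the 43 genes in 52 windows. Capitals mark matches, on either strand, to the E-box CACGTG bound by Myc-type factors, to the E2F-type letters TTTCGCGC, TTTGGCGC, TTTCCCGC and TTTGCCGC, or to CCAAT, the letters bound by NF-Y. Tyms makes thymidine monophosphate (chr5:30073576-30073875, minus strand), and Dtymk phosphorylates it (chr1:93801885-93802184, minus strand). Atic closes the purine ring (chr1:71556906-71557205, plus strand), and Nme1 exchanges phosphates between nucleotides (chr11:93967976-93968275, minus strand, the downstream of its windows). Ppat (chr5:76951529-76951828, minus strand) and Paics (chr5:76951052-76951351, plus strand) are purine enzymes whose starts lay 276 bases apart on opposite strands, with windows that shared 0 bases. Each of these starts lay downstream of the other, so the 276 bases follow both starts and precede neither.
Tyms: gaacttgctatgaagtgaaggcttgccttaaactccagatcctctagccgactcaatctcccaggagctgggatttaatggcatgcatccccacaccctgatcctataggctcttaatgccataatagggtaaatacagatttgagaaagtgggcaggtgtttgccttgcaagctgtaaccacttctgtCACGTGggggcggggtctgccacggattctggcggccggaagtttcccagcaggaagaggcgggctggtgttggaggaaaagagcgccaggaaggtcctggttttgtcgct
Dtymk: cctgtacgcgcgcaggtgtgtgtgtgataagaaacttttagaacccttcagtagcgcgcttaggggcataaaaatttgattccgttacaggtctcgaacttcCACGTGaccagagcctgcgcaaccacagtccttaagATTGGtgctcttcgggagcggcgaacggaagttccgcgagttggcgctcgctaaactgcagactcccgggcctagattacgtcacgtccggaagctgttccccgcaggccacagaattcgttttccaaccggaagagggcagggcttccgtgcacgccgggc
Atic: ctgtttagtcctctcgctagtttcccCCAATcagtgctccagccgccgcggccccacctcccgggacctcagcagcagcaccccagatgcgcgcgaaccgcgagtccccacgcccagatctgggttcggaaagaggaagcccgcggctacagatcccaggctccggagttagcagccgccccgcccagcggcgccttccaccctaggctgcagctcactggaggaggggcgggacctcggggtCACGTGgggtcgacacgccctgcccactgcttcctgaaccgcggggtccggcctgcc
Nme1: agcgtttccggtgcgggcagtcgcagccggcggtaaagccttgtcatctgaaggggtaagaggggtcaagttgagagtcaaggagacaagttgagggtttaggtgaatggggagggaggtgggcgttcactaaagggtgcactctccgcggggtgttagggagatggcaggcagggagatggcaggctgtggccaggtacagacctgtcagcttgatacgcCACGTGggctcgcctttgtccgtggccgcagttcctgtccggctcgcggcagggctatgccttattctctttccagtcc
Ppat: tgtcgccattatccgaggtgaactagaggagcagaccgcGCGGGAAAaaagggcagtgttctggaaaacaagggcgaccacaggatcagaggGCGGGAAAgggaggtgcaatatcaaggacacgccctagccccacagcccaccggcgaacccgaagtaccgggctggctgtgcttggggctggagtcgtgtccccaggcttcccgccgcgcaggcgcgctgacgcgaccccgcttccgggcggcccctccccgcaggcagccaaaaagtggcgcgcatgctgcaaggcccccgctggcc
Paics: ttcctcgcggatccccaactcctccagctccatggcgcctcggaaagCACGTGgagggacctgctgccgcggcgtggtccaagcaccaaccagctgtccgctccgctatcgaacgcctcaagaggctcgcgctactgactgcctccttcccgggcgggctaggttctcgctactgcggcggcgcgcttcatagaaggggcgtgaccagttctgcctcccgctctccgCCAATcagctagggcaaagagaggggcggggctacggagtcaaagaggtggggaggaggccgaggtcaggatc

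The E-box was found in 6 of the 52 windows (11.5%), against 7.15% of the 32851 promoter windows of all genes in the table. Those 6 windows belonged to Tyms, Dtymk, Atic, Paics and Nme1, which had it in both of its windows. E2F-type letters were in 2 windows (3.85%), against 2.26% of all windows. Ppat held a pair of them, both as the reverse complement GCGGGAAA, and the other window was that of the PRPP synthetase Prps2. CCAAT was in 17 windows (32.7%), against 37.4% of all windows. None of these motifs contains another, and a match is a run of letters, not a shown binding site.

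Across the whole set, levels in EVI1 arrays were mostly below those in EGFP arrays. Of 43 genes, 22 fell (51.2%) at a limma adjusted p under 0.05, where 9.18% of all genes fell. Rises numbered 4 (9.30%), where 9.06% of all genes rose. In either direction 26 passed (60.5%), against 18.2% of all genes. The median log2 fold change, EVI1 minus EGFP, was -0.50 over the members and 0.0060 over all genes, and 34 of the 43 were below 0. The fall reached 2-fold in 13 genes, and the 1 rise of that size was that of Upp1.

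The separation of single arrays gave a similar count. In 24 members (55.8%) every EVI1 value lay below every EGFP value, against 16.5% of all genes. In 4 members every EVI1 value lay above, against 16.1% of all genes. The mean over the members was 9.29, 9.48 and 9.35 in the 3 EVI1 arrays, against 9.78, 9.99 and 9.86 in the 3 EGFP arrays. Replicate 2 was the highest of each group, and the groups did not overlap. By role, the median change was steepest in deoxynucleotide synthesis (-1.36) and nearest to 0 in purine salvage and breakdown (-0.077). Counts by role, below, stand beside the 9.18% of all genes that fell and the 9.06% that rose. No role was tested against these shares.

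**Figure D1:**
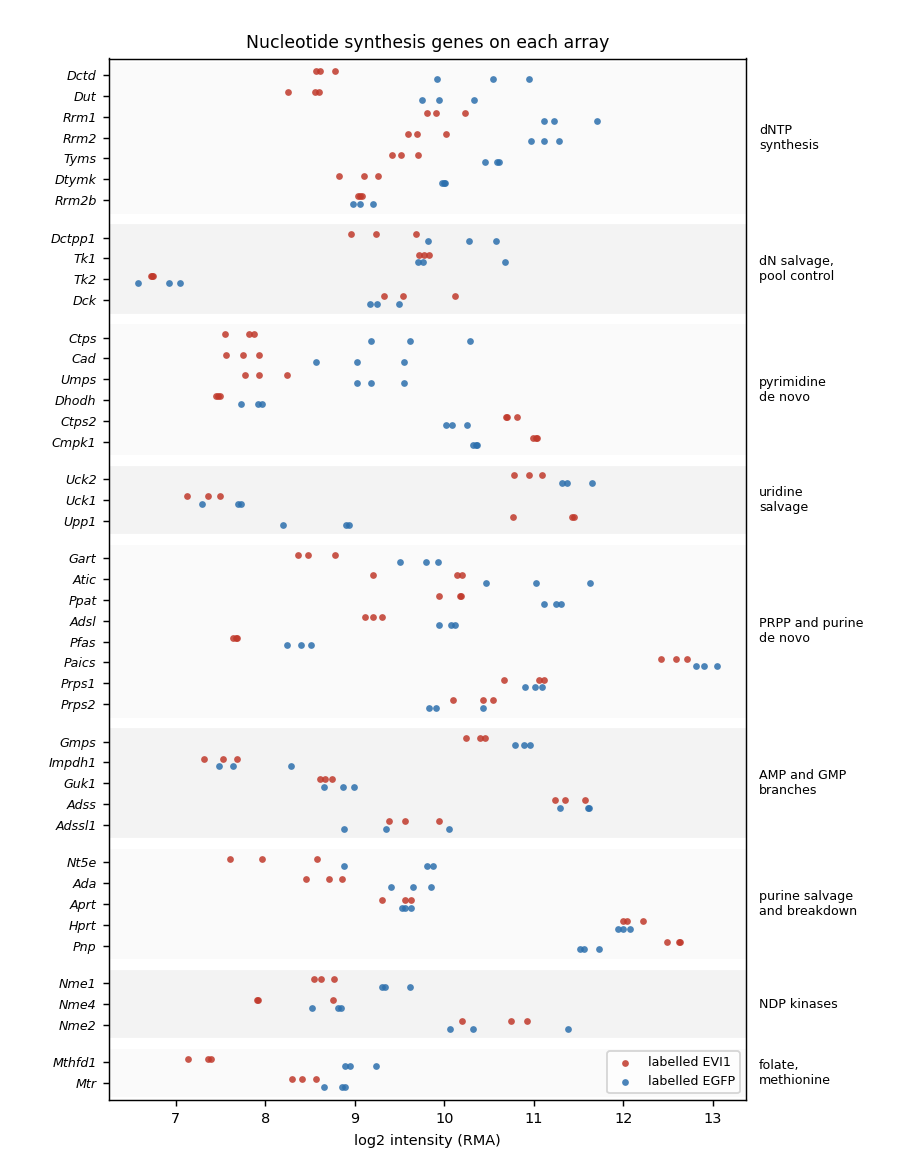
Log2 intensity (RMA, horizontal axis) of the 43 measured genes on each array, grouped by role, with red points for the 3 arrays labelled EVI1 and blue points for the 3 labelled EGFP. Red points lie wholly to the left of blue points in 24 genes and wholly to the right in 4 (Ctps2, Cmpk1, Upp1 and Pnp).

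In deoxynucleotide synthesis 6 of 7 genes fell and 0 rose, and the exception was the reductase subunit Rrm2b. Rrm1, the large catalytic subunit of ribonucleotide reductase, had 9.90, 10.23 and 9.80 in EVI1 arrays, against 11.11, 11.70 and 11.23 in EGFP arrays. Rrm2, the small subunit made in S phase, had 9.59, 10.02 and 9.69 in EVI1 arrays, against 10.97, 11.29 and 11.11 in EGFP arrays. The groups stood clear of each other in both genes, by -1.37 ± 0.18 for Rrm1 and -1.36 ± 0.14 for Rrm2 (log2 fold change ± SE throughout, 3 arrays in each group; limma adjusted p = 0.00159 and 0.00059). Rrm2b, the small subunit that is induced by p53 and serves cells outside S phase, had 9.06, 9.08 and 9.04 in EVI1 arrays, against 9.06, 8.98 and 9.20 in EGFP arrays. Its groups overlapped, and its change of -0.019 ± 0.10 did not pass the test (adjusted p = 0.947) and turned to 0.018 under a further quantile normalization.

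The other genes of this role that fell were Dctd, Dut, Tyms and Dtymk, which make or phosphorylate deoxyuridine and thymidine monophosphates. Dctd, which deaminates dCMP to dUMP, had 8.78, 8.61 and 8.57 in EVI1 arrays, against 10.55, 9.92 and 10.95 in EGFP arrays. This fall of -1.82 ± 0.23 (adjusted p = 0.00136) ranked 86 from the lowest of all genes, although the EGFP arrays spread widely. Dut, which breaks dUTP down to dUMP and keeps uracil out of DNA, had 8.25, 8.60 and 8.56 in EVI1 arrays, against 9.75, 10.33 and 9.94 in EGFP arrays (-1.54 ± 0.17, adjusted p = 0.000706). Tyms, which methylates dUMP with a folate-borne carbon, had 9.41, 9.71 and 9.52 in EVI1 arrays, against 10.45, 10.61 and 10.59 in EGFP arrays (-1.003 ± 0.12, adjusted p = 0.000833). Dtymk averaged 9.06 ± 0.22 in EVI1 arrays and 10.00 ± 0.015 in EGFP arrays (SD, n = 3 each), a fall of 0.93 on the log2 scale. In each of these 4 genes the highest EVI1 array was lower than the lowest EGFP array.

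Among enzymes that salvage deoxynucleosides or trim the pool, 1 of 4 fell and 0 rose. Dctpp1, which hydrolyses dCTP, averaged 9.29 ± 0.37 in EVI1 arrays and 10.23 ± 0.38 in EGFP arrays, a fall of 0.93 (adjusted p = 0.0261). That call was lost without EVI1 replicate 1 (adjusted p = 0.0848), EVI1 replicate 3 (0.102) or EGFP replicate 3 (0.0862). Tk1, the thymidine kinase of S phase, had 9.77, 9.72 and 9.83 in EVI1 arrays, against 9.70, 10.68 and 9.76 in EGFP arrays. On this brighter probe set a single array, EGFP replicate 2, set the Tk1 difference: -0.27 ± 0.24 with it and 0.041 without it, neither past the test. The dimmer of the Tk1 probe sets gave a different picture, at 8.42 ± 0.20 in EVI1 arrays and 9.14 ± 0.20 in EGFP arrays with no overlap, a difference of -0.72 that was not tested alone. The mean of the Tk1 probe sets changed by -0.50 and did not pass (limma adjusted p = 0.111).

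Tk2 and Dck did not pass the test. Tk2, the thymidine kinase of mitochondria, had 6.74, 6.74 and 6.72 in EVI1 arrays, against 7.04, 6.58 and 6.92 in EGFP arrays (-0.12 ± 0.13). Those values lie in the range of olfactory receptor probes. Dck, which phosphorylates deoxycytidine, averaged 9.66 ± 0.41 in EVI1 arrays and 9.30 ± 0.17 in EGFP arrays (0.36 ± 0.20, adjusted p = 0.307), a difference of 0.13 without EVI1 replicate 3.

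Genes of pyrimidine synthesis from its beginning to UMP had lower RNA signal, and the gene of the kinase that follows had higher signal. Cad, which joins the first reactions of the route in 1 protein, had 7.56, 7.93 and 7.75 in EVI1 arrays, against 8.57, 9.54 and 9.02 in EGFP arrays (-1.30 ± 0.23, adjusted p = 0.00606). Umps, which attaches the ring to PRPP and finishes UMP, had 7.93, 8.24 and 7.77 in EVI1 arrays, against 9.03, 9.55 and 9.18 in EGFP arrays (-1.27 ± 0.17, adjusted p = 0.00174). Replicate 2 was the highest in both groups for Cad and Umps, and the groups did not overlap. Dhodh, the mitochondrial step between them, fell by 0.40 ± 0.11 (adjusted p = 0.0339), to 7.47 ± 0.020 in EVI1 arrays, against 7.87 ± 0.13 in EGFP arrays. The Dhodh call was lost without any 1 of EVI1 replicates 1, 2 and 3 or EGFP replicates 2 and 3, with adjusted p between 0.0619 and 0.116. Cmpk1, which phosphorylates UMP and CMP, rose by 0.67 ± 0.094 (adjusted p = 0.00212), to 11.02 ± 0.021 in EVI1 arrays, against 10.35 ± 0.021 in EGFP arrays.

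The CTP synthases moved in opposite directions. Ctps, which turns UTP into CTP, had 7.55, 7.82 and 7.87 in EVI1 arrays, against 9.18, 10.28 and 9.61 in EGFP arrays. This was a 3.85-fold fall (-1.94 ± 0.25, adjusted p = 0.00149), the steepest among the 43 genes and 61 from the lowest of all genes. Ctps2, its isozyme encoded on the X chromosome, had 10.81, 10.69 and 10.70 in EVI1 arrays, against 10.25, 10.09 and 10.02 in EGFP arrays, a rise of 0.62 ± 0.11 (adjusted p = 0.00592). Neither gene's groups overlapped.

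Uridine salvage held the 1 rise above 2-fold. Upp1, uridine phosphorylase, which splits uridine into uracil and ribose phosphate, had 10.77, 11.43 and 11.45 in EVI1 arrays, against 8.90, 8.94 and 8.20 in EGFP arrays. The lowest EVI1 array exceeded the highest EGFP array, and the 5.79-fold rise (2.53 ± 0.25, adjusted p = 0.000417) ranked 66 from the highest of all genes. Uck2, a uridine-cytidine kinase, had 10.95, 11.09 and 10.78 in EVI1 arrays, against 11.37, 11.31 and 11.65 in EGFP arrays (-0.50 ± 0.13, adjusted p = 0.0336). This fall was close to the threshold: adjusted p was 0.0506 with a replicate block, and between 0.0595 and 0.123 without any 1 of EVI1 replicates 1 and 3 or EGFP replicates 1 and 3. Another Uck2 probe set differed by -0.93, at 7.99, 8.65 and 8.36 in EVI1 arrays, against 8.75, 10.30 and 8.72 in EGFP arrays. Uck1, the related kinase, had 7.36, 7.13 and 7.50 in EVI1 arrays, against 7.69, 7.29 and 7.72 in EGFP arrays, an overlap and a change that did not pass (-0.24 ± 0.15).

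PRPP supply and purine synthesis up to IMP fell in 5 of 8 genes, with 0 rises. Ppat, the committed step that puts the first amine on PRPP, had 9.94, 10.17 and 10.19 in EVI1 arrays, against 11.12, 11.30 and 11.25 in EGFP arrays (-1.12 ± 0.11, adjusted p = 0.000509). Gart, which takes a carbon from formyl folate, had 8.78, 8.48 and 8.36 in EVI1 arrays, against 9.80, 9.50 and 9.93 in EGFP arrays (-1.20 ± 0.15, adjusted p = 0.00139). Each of these genes was more than 2-fold lower with tight arrays. Pfas, the next amidation step, averaged 7.67 ± 0.024 in EVI1 arrays and 8.38 ± 0.13 in EGFP arrays, a fall of 0.72 ± 0.11. Adsl, which releases fumarate here and again on the way to AMP, averaged 9.21 ± 0.097 in EVI1 arrays and 10.05 ± 0.090 in EGFP arrays, a fall of 0.84 ± 0.11.

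Atic and Paics depended more on single arrays or on the fit. Atic, which adds the last folate-borne carbon and closes the ring, had 9.20, 10.14 and 10.20 in EVI1 arrays, against 10.46, 11.62 and 11.02 in EGFP arrays (-1.19 ± 0.34, adjusted p = 0.0441). The groups did not overlap, but replicate 1 was the lowest in each, and the call was lost without any 1 of EVI1 replicates 1, 2 and 3 or EGFP replicates 2 and 3 (adjusted p 0.0687 to 0.115, log2 fold change -1.36 to -0.87). With a replicate block the adjusted p of Atic was 0.00233. Paics, which carries out carboxylation and the step after it and was the brightest of the members, had 12.42, 12.71 and 12.59 in EVI1 arrays, against 12.81, 13.05 and 12.90 in EGFP arrays. Its arrays lay apart, yet the change of -0.35 ± 0.12 did not pass (adjusted p = 0.0931), except with a replicate block (0.0439). Its neighbour Ppat, which starts 276 bases away on the opposite strand, changed by -1.12. A test of the difference between these neighbours was not run.

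The PRPP synthetases that feed the route did not pass the test. Prps1 had 11.11, 11.06 and 10.67 in EVI1 arrays, against 10.91, 11.01 and 11.09 in EGFP arrays (-0.056 ± 0.14), and its sign turned to 0.082 without EVI1 replicate 3. Prps2 had 10.09, 10.55 and 10.44 in EVI1 arrays, against 9.83, 10.44 and 9.91 in EGFP arrays (0.30 ± 0.19). Groups overlapped in both genes.

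**Figure D2:**
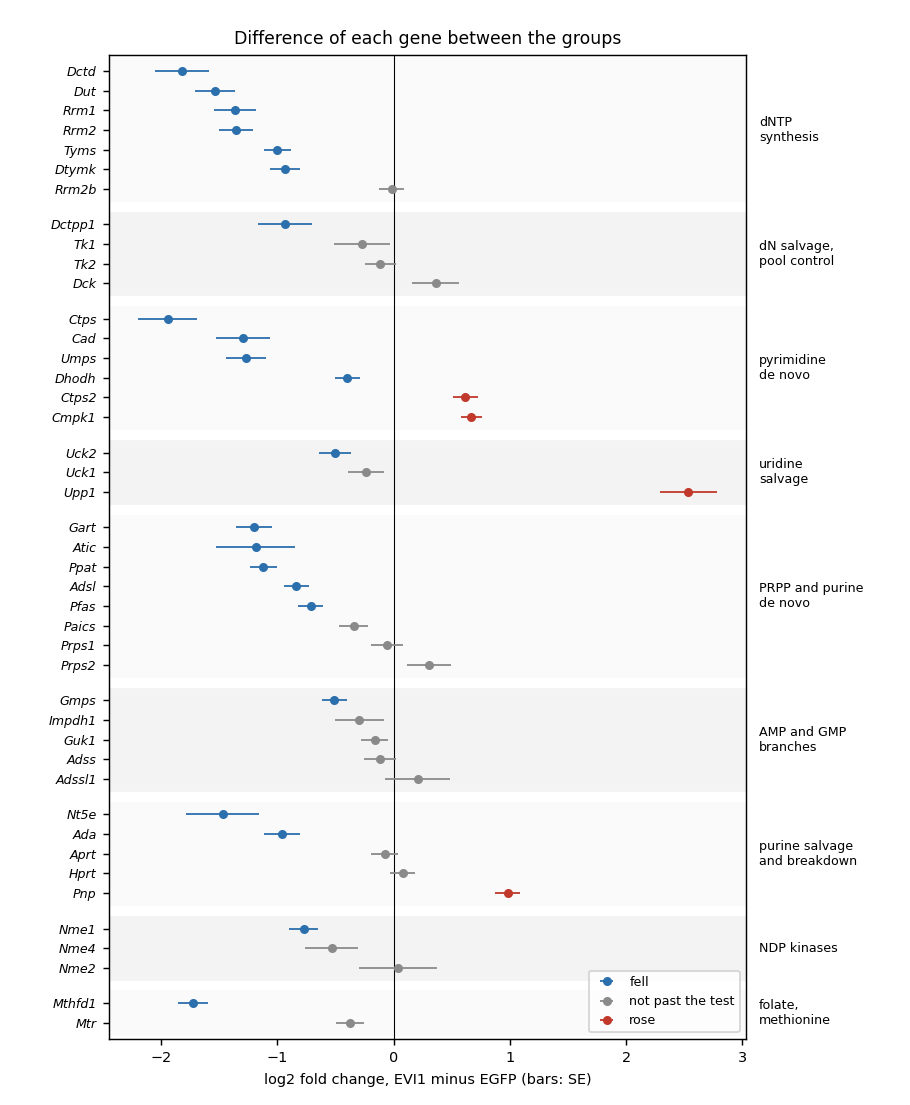
Log2 fold change, EVI1 minus EGFP (horizontal axis), of the 43 genes with bars of 1 SE, grouped by role; blue genes fell, red genes rose and grey genes did not pass limma's test. Ctps is farthest to the left at -1.94 and Upp1 farthest to the right at 2.53, and each role but pyrimidine synthesis de novo holds at least 1 grey point.

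In the branches from IMP to AMP and GMP, 1 of 5 measured genes fell and 0 rose, with a median of -0.16. The median was -0.78 in PRPP supply and purine synthesis up to IMP, a role that includes Prps1 and Prps2. The difference between these roles was not tested. Gmps, which aminates XMP to GMP, averaged 10.37 ± 0.11 in EVI1 arrays and 10.88 ± 0.083 in EGFP arrays, a fall of 0.51 ± 0.11 (adjusted p = 0.0133). Without EVI1 replicate 3 its adjusted p was 0.0530, and without EGFP replicate 3 it was 0.0541. Impdh1, which makes XMP, averaged 7.51 ± 0.19 in EVI1 arrays and 7.80 ± 0.42 in EGFP arrays (-0.30 ± 0.21, not past the test). Guk1, which phosphorylates GMP, averaged 8.67 ± 0.068 in EVI1 arrays and 8.84 ± 0.17 in EGFP arrays (-0.16 ± 0.12, not past the test).

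On the AMP side neither adenylosuccinate synthase passed. Adss, the isozyme of most tissues, had 11.35, 11.58 and 11.23 in EVI1 arrays, against 11.60, 11.30 and 11.62 in EGFP arrays (-0.12 ± 0.14). Adssl1, the isozyme named for muscle, had 9.39, 9.94 and 9.56 in EVI1 arrays, against 9.35, 10.05 and 8.88 in EGFP arrays (0.21 ± 0.28), with a value of -0.069 without EGFP replicate 3. Both genes overlapped between groups.

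The phosphoribosyltransferases of purine salvage did not pass the test, while genes of adenosine and nucleoside breakdown went both ways. Hprt, which recovers hypoxanthine and guanine, averaged 12.08 ± 0.12 in EVI1 arrays and 12.00 ± 0.071 in EGFP arrays (0.077 ± 0.11). Aprt, which recovers adenine, averaged 9.50 ± 0.17 in EVI1 arrays and 9.57 ± 0.053 in EGFP arrays (-0.077 ± 0.12). Groups overlapped in both, and the sign of Aprt turned to 0.019 without EVI1 replicate 1. Nt5e (CD73), the surface enzyme that makes adenosine from AMP, had 8.57, 7.96 and 7.61 in EVI1 arrays, against 9.81, 9.87 and 8.88 in EGFP arrays (-1.47 ± 0.31, adjusted p = 0.0132). Its groups lay close at their edges, and without EVI1 replicate 3 the change was -1.25 with an adjusted p of 0.0641.

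Ada, which deaminates adenosine, fell by 0.96 ± 0.15 (adjusted p = 0.00370), to 8.67 ± 0.20 in EVI1 arrays, against 9.63 ± 0.22 in EGFP arrays. Pnp, the purine nucleoside phosphorylase that acts after it, had 12.63, 12.49 and 12.63 in EVI1 arrays, against 11.73, 11.56 and 11.52 in EGFP arrays. This rise of 0.98 ± 0.11 (adjusted p = 0.000717) was the other rise of a nucleoside phosphorylase beside that of Upp1. A probe set shared by Pnp and its near-identical neighbour Pnp2 differed by 0.92, so signal from the neighbour on Pnp probes was not separated here.

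Of the nucleoside diphosphate kinases, which pass phosphate between nucleotides, 1 of 3 fell. Nme1 had 8.55, 8.77 and 8.63 in EVI1 arrays, against 9.31, 9.62 and 9.34 in EGFP arrays, with no overlap (-0.77 ± 0.12, adjusted p = 0.00393). Nme2, encoded beside it, had 10.20, 10.93 and 10.75 in EVI1 arrays, against 10.06, 11.38 and 10.32 in EGFP arrays (0.037 ± 0.33). Its EGFP arrays enclosed the EVI1 arrays, and its sign changed with the array left out, between -0.23 and 0.43. Nme4, the mitochondrial member, averaged 8.19 ± 0.49 in EVI1 arrays and 8.73 ± 0.18 in EGFP arrays (-0.53 ± 0.23, adjusted p = 0.170). Without EVI1 replicate 2, at 8.76 the array nearest to the EGFP values, Nme4 changed by -0.81 with an adjusted p of 0.0116.

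The folate and methionine cycle was represented by Mthfd1 and Mtr. Mthfd1, which interconverts the folate forms used for purines and thymidylate, had 7.36, 7.14 and 7.40 in EVI1 arrays, against 8.95, 8.89 and 9.24 in EGFP arrays. The 3.31-fold fall (-1.73 ± 0.13, adjusted p = 0.000167) ranked 109 from the lowest of all genes and had the smallest p of the 43. Mtr, which frees folate by making methionine, had arrays apart at 8.43 ± 0.14 in EVI1 and 8.80 ± 0.13 in EGFP, and its change of -0.38 ± 0.12 did not pass (adjusted p = 0.0684). It passed with array weights (0.0296) and without EGFP replicate 2 (0.0356).

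Paralogs that catalyse the same reaction were then compared with each other on the same arrays. For 7 pairs the difference between their log2 fold changes was tested by an exact two-sided permutation test over the 6 arrays, which allows no p under 0.1. The pairs whose arrays lay apart were 2, Ctps against Ctps2 (difference -2.56 ± 0.39) and Rrm2 against Rrm2b (-1.34 ± 0.18), both at the smallest possible exact p of 0.1 and a Benjamini-Hochberg value of 0.35 over the 7. Nme1 against Nme2 differed by -0.81 ± 0.34 (exact p = 0.2) and Prps1 against Prps2 by -0.36 ± 0.30 (exact p = 0.2). The remaining differences were 0.26 ± 0.22 for Uck1 against Uck2 (exact p = 0.3), -0.33 ± 0.45 for Adss against Adssl1 (exact p = 0.6) and -0.16 ± 0.45 for Tk1 against Tk2 (exact p = 1.0). With 3 arrays against 3 this exact test cannot reach 0.05 for any pair, and no other test of the pairs was run, so the values are given as sizes with their error.

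**Figure D3:**
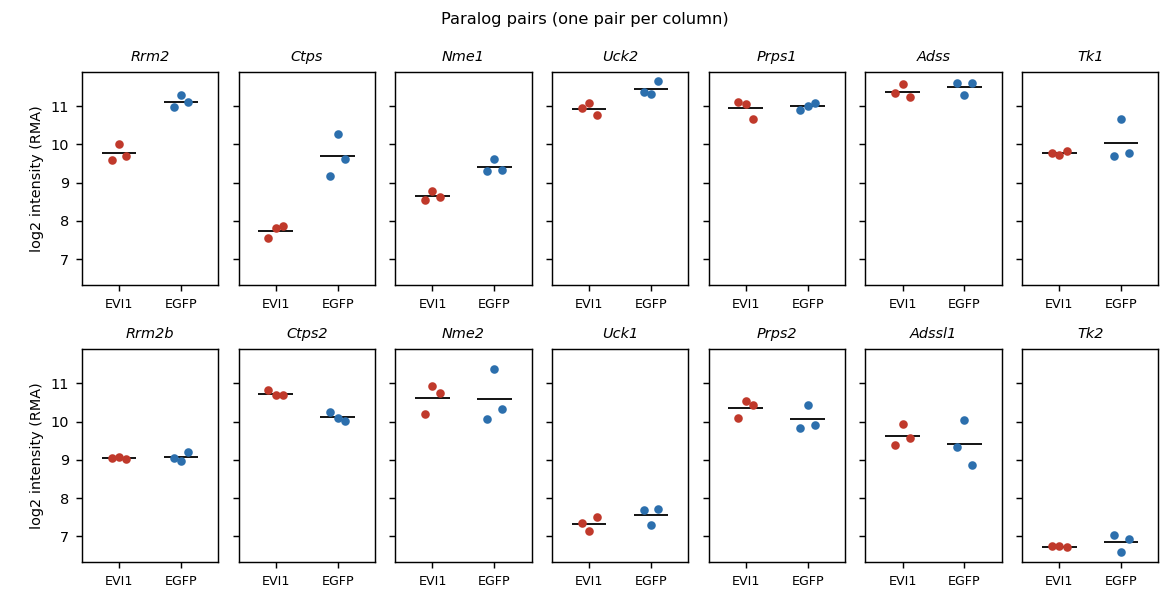
Log2 intensity (RMA, vertical axis) of both genes of each pair, 1 pair per column, for the 3 arrays labelled EVI1 (red, left in each panel) and the 3 labelled EGFP (blue, right), with a line at each group mean. Rrm2 and Ctps are lower in EVI1 arrays, while Rrm2b overlaps and Ctps2 is higher; heights of different genes are probe set intensities and are not compared.

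Other genes of the same pathways, listed by function, were counted in the same way. Of 91 genes listed for one-carbon supply, nucleotide kinases, breakdown and transport, 78 were measured. Among these 22 fell, 10 rose and 46 missed the threshold, and the median was -0.068. Over all genes tested 9.18% fell and 9.06% rose, and the counts of each list that follows stand beside these shares. No list was tested against them. The count of falls was 13 without EVI1 replicate 3. One-carbon and serine supply held 11 of the falls and 3 of the rises among 26 genes, with a median of -0.40. Mthfd2 (-1.19 ± 0.14) and Mthfd1l (-1.14 ± 0.14), which make formate in mitochondria, fell. Gcsh of the glycine cleavage system fell by 1.42 ± 0.19, and Shmt1, which takes a carbon from serine in the cytosol, by 0.93 ± 0.13. Shmt2, its mitochondrial form, named after its value was seen, fell by 2.03. Rises were found for Ggh (1.15 ± 0.22), which trims folate polyglutamates, Aldh1l1 (0.77 ± 0.16), which burns formyl folate, and Mat2b (0.51 ± 0.097), a regulator of methionine adenosyltransferase. Aldh1l2, related to Aldh1l1 and named after its value was seen, fell by 0.88.

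Kinases and pool sanitation, breakdown and transport were mixed. Among 22 kinase and sanitation genes 4 fell and 5 rose, with a median of 0.010. Ak4 (-1.28 ± 0.18), an adenylate kinase of mitochondria, Nme6 (-1.10 ± 0.26), Adk (-0.77 ± 0.20), which phosphorylates adenosine, and Dnph1 (-0.61 ± 0.14), which hydrolyses deoxynucleotides, fell. Samhd1, the triphosphohydrolase that degrades deoxynucleotides, rose by 1.06 ± 0.13, with 12.81, 12.63 and 12.85 in EVI1 arrays, against 11.86, 11.53 and 11.72 in EGFP arrays. Cmpk2 (1.94 ± 0.21), an interferon-induced mitochondrial kinase, Nme5 (1.82 ± 0.22) and Uckl1 (0.62 ± 0.12) rose as well, with EGFP means of Cmpk2 and Nme5 below the olfactory guide. Another that rose, Ak1 (0.62), was named after its value was seen.

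Among 20 breakdown genes there were 5 falls and 1 rise, with a median of -0.050. Xdh, which makes uric acid, fell by 1.58 ± 0.18, Mtap, which salvages adenine from polyamine synthesis, by 0.88 ± 0.16, Nt5c3b by 0.63 ± 0.11 and the AMP deaminase Ampd2 by 0.63 ± 0.11. The pyrimidine nucleotidase Nt5c3 rose by 1.44 ± 0.16. Of 10 transporters 2 fell, Slc29a1 (-0.45 ± 0.099) and Slc28a2 (-0.66 ± 0.17, EVI1 mean below the olfactory guide), both nucleoside carriers of the cell surface. Slc25a36 (0.94 ± 0.11), which carries pyrimidine nucleotides into mitochondria, rose, and 7 did not pass.

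**Figure D4:**
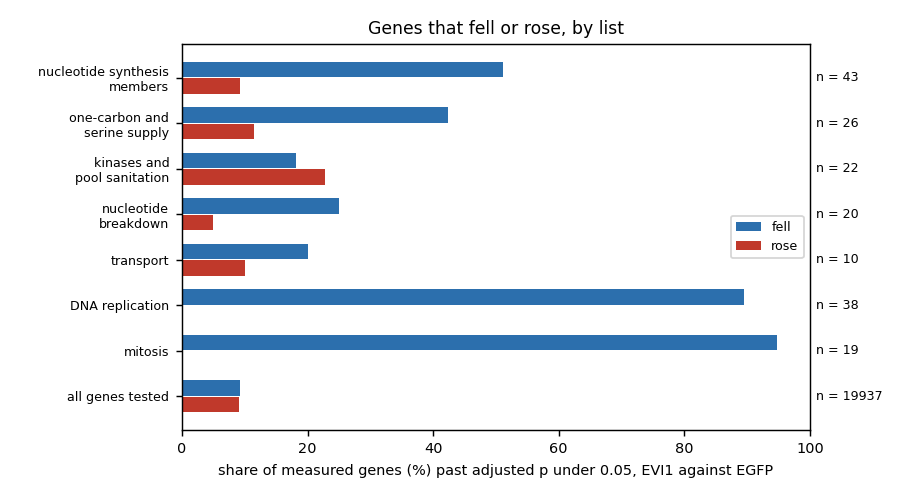
Share of measured genes (%, horizontal axis) that fell (blue) or rose (red) at a limma adjusted p under 0.05 in each list, with the number measured at the right. Falls made up 51.2% of the 43 members and 9.18% of all genes, while rises were near their share among all genes in the members (9.30% and 9.06%).

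DNA replication and mitosis genes, none of them members, mostly fell too. Of 38 DNA replication genes 34 fell and 0 rose (median -1.22), and of 19 mitosis genes 18 fell and 0 rose (median -1.12). The mean of the replication genes was 8.62, 8.81 and 8.54 in EVI1 arrays, against 9.72, 9.91 and 9.83 in EGFP arrays, and replicate 2 was the highest of each group, as for the members. The lowest EVI1 array was replicate 3 for the replication genes and replicate 1 for the members. Markers of cell types differed too. Their counts stand beside the 9.18% of all genes that fell and the 9.06% that rose. All 6 measured stem and progenitor markers were over the olfactory guide in both groups, and 5 fell and 1 (Ptprc) rose, with array means of 9.50 to 9.53 in EVI1 and 10.47 to 10.57 in EGFP arrays. Of 6 mast cell and basophil markers 5 fell, with means of 9.12 to 9.45 in EVI1 and 10.52 to 11.02 in EGFP arrays. Of 7 neutrophil markers 2 rose and 0 fell (9.26 to 9.76 in EVI1 and 8.93 to 9.74 in EGFP arrays). The rises were those of Ly6g and Mmp9, whose EGFP means were below the olfactory guide. With a replicate block, however, S100a9 (-0.44, adjusted p = 0.0298), Ltf (-1.40, 0.0295) and Cxcr2 (-0.34, 0.0495) fell. Among 7 monocyte and macrophage markers 3 fell and 2 rose (8.67 to 9.39 in EVI1 and 9.21 to 9.75 in EGFP arrays), and with the block Adgre1 fell too (-1.08, adjusted p = 0.00233). Lymphocyte markers were mostly below the olfactory guide, with 1 of 6 over it in EVI1 and 2 of 6 in EGFP arrays (array means of 6.30 to 6.37 in EVI1 and 6.29 to 6.59 in EGFP arrays). Of these, 1 fell, Cd3g (-1.28, adjusted p = 0.0174), with its EVI1 mean below the guide. Of 5 NK cell markers Nkg7 and Klrd1 fell (5.79 to 6.13 in EVI1 and 6.96 to 7.12 in EGFP arrays), with Klrb1c, below the guide in both groups, added by the block (-0.43, adjusted p = 0.0332). The EVI1 mean of Klrd1 was below the guide. Of 4 erythroid markers 2 rose (7.87 to 7.998 in EVI1 and 7.37 to 7.54 in EGFP arrays), and of 5 megakaryocyte markers 1 fell and 2 rose (9.24 to 9.39 in EVI1 and 9.12 to 9.43 in EGFP arrays). Among 6 stromal and endothelial markers the endothelial genes Cdh5 and Kdr rose (8.16 to 8.54 in EVI1 and 7.54 to 7.70 in EGFP arrays). The EGFP means of Cdh5 and Kdr were below the olfactory guide. Pecam1, also an endothelial marker, was lower in every EVI1 array than in every EGFP array (-0.44), without passing the test (adjusted p = 0.0605) except with the block (0.0251). The part of cell cycle state or cell makeup in the changes of the nucleotide genes was not tested.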

How the data were processed

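The authors deposited log2 intensities for every probe set of each array; they were made with RMA per the submitters' processing notes, whose version is not given in the sources used here. RMA brings arrays to common quantiles, so a change of total RNA per cell would not appear. No rescaling was applied here. Among 34760 probe sets, 21640 carried 1 gene symbol in the platform annotation, 1321 several and 11799 were unnamed here; the brightest single-symbol probe set stood for each of 19937 genes (954 had more than 1), with no filter. EVI1 and EGFP arrays, 3 each, were compared with limma 3.58.1 in R 4.3.3 (lmFit, eBayes, two-sided), with Benjamini-Hochberg adjustment over all genes and a threshold of 0.05. On simulated data of 19937 genes this test recovered 68% of 100 genes changed by 1 on the log2 scale. It recovered 98% of 100 changed by 2, with 11 false calls. The simulation used independent normal noise and changed 200 genes, whereas 18.2% of all genes passed on the real arrays. Its rates may therefore differ from those on the real arrays.

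The members, lists, tests and the 13 alternatives were chosen with earlier results of these data known. Every measured member is named with its values; those changed at least 2-fold, paralogs and the 2 brightest get the value of every array. From each list of other pathway genes, up to 4 falls and up to 4 rises with the smallest p are named, apart from exceptions marked in the text, and Mecom. Markers outside this rule (Ptprc, Ly6g, Mmp9, S100a9, Ltf, Cxcr2, Adgre1, Cd3g, Nkg7, Klrd1, Klrb1c, Cdh5, Kdr and Pecam1) were chosen after their values were seen. Same-numbered arrays deviated together from their group means across genes (r = 0.491, 0.269 and 0.197 for replicates 1, 2 and 3). Other matchings of the arrays were not compared, so whether the numbers pair the samples was not settled. What the numbers stand for is not in the labels. Promoters were searched by exact match on both strands.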

Additional observations from a re-analysis of the deposited data

How the results depend on the processing

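The counts of members that fell and rose, 22 and 4, stayed at 22 and 4 under a further quantile normalization, both filters on dim probe sets, the mean of all probe sets of a gene and trended, robust variance, and were 23 and 4 with array weights. With the replicate block they were 22 and 4 as well, with Uck2 lost (adjusted p = 0.0506) and Paics gained (0.0439); it changed no other call of a member, and over all genes it gave 2172 rises and 2189 falls. Leaving out 1 array at a time gave 16 to 21 falls and 4 rises among members. The median of the members then ranged over -0.56 to -0.39, with -0.39 without EVI1 replicate 1, and the falls among other pathway genes over 13 to 22, with 13 without EVI1 replicate 3; fewer arrays per fit is part of that construction. Some members near 0 changed sign: Rrm2b reached 0.018 under a further quantile normalization. With 1 array left out, Rrm2b ranged over -0.068 to 0.042, Tk1 over -0.45 to 0.041, Prps1 over -0.14 to 0.082, Adssl1 over -0.069 to 0.52, Aprt over -0.14 to 0.019 and Nme2 over -0.23 to 0.43. The difference of Tk1 against Tk2 ranged over -0.43 to 0.29 and that of Adss against Adssl1 over -0.74 to 0.0034. Where a group is left with 2 arrays, its spread is pooled with the other's. The median over all genes stayed between -0.022 and 0.024 under every alternative run. Arrays limit these values at the dim end. Tk2, Mecom and Klrb1c in both groups lay in the range of olfactory receptor probes. So did Cmpk2, Nme5, Ly6g, Mmp9, Cdh5 and Kdr in EGFP arrays, and Slc28a2, Cd3g and Klrd1 in EVI1 arrays. EGFP replicate 2 had the lowest array weight, 0.452 against 0.874 to 1.55 for the others, and without it 21 members fell and 4 rose.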
